A study of Homo sapiens with 30 samples.

Results

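The data described here are the effect of CHIR99021 (CHIR) on gene expression in U2OS cells that carry wild-type (WT) FOXP2 from a plasmid. The members were chosen by the libraries' labels alone: the 5 libraries of cells given WT FOXP2 plus CHIR were set against the 5 libraries of cells given WT FOXP2 without CHIR, so that 10 of the 30 libraries of the series enter the main comparison. U2OS is a human osteosarcoma cell line. In the first group the cells received CHIR at 5 µM from 72 h before transfection and then 500 ng of WT FOXP2 plasmid for 48 h. The second group received the same plasmid and transfection without CHIR. Of the other 4 groups, 2 carried a FOXP2 form without a helix of residues 264 to 272 (dhelix FOXP2), with or without CHIR, and 2 carried no FOXP2 plasmid, namely CHIR alone and mock. Whether the mock cells were given an empty plasmid is not stated in the labels. Each group held 5 libraries that the labels call biological replicates, and poly(A) RNA was sequenced in strand-specific, paired-end libraries. FOXP2 came from a transiently transfected plasmid, so its level is that of the transfection and not that of an endogenous gene.

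CHIR inhibits the kinase GSK3. In canonical Wnt signalling GSK3, bound to AXIN and APC in the destruction complex, marks β-catenin for degradation, and β-catenin that escapes enters the nucleus and acts with TCF and LEF factors on target genes, several of which, such as AXIN2 and RNF43, feed back on the pathway. GSK3 also phosphorylates proteins outside the Wnt pathway. FOXP2 belongs to the forkhead family of transcription factors and is best known for a role in speech and language, and the series title names β-catenin as a regulator of its activity.

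The 10 libraries held 17365697 to 24195383 counts with WT FOXP2 plus CHIR and 16858604 to 28132145 counts with WT FOXP2. No 2 libraries of a group agreed within sampling noise, and the first principal component, with 75% of the variance, separated the groups. By chi-square per gene, library 4 with WT FOXP2 plus CHIR stood farthest from its group, with a mean of 5.98 against its fellows. Library 1 followed with 4.47, while the other 3 lay at 2.97 to 3.55 and the WT FOXP2 libraries at 2.33 to 2.80. By the median absolute deviation of log2 CPM from the mean of its fellows, library 1 stood farthest, at 0.0996 against 0.0811 for library 4. Of the cell type's markers, the mesenchymal gene VIM (vimentin) averaged 1367 counts per 1000000 (CPM) with CHIR and 2587 CPM without it. Of 18 blood cell genes in the table only 6 passed the filter on low counts. CD3E, NKG7 and HBB were at 0 counts in all 10 libraries, which for a library allows up to 3 counts, while GZMB averaged 52.8 CPM with CHIR and 0.708 CPM without it.

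FOXP2 itself differed between the groups. It stood at 14565, 16321, 15444, 16122 and 14041 CPM in the 5 libraries with WT FOXP2 plus CHIR, against 5906, 7806, 6863, 7769 and 7039 CPM in the 5 libraries with WT FOXP2. Every library with CHIR lay above every library without it. The mean was 15299 ± 983 CPM with CHIR and 7076 ± 779 CPM without it (SD, n = 5 each), a ratio of 2.16 (exact permutation test over libraries, two-sided, p = 0.00794, the smallest that 5 against 5 allows). FOXP2 took 1.55% of all counts with CHIR and 0.672% without it. The effect of CHIR on other genes and the effect of having more FOXP2 transcript therefore cannot be told apart within these 10 libraries. With dhelix FOXP2 the levels were 13481 ± 917 CPM with CHIR and 5319 ± 640 CPM without it, and the difference between the 2 CHIR effects did not pass the test (log2 difference −0.23 ± 0.12 SE, edgeR adjusted p = 0.219), except without the filter on low counts (−0.17). In cells without the plasmid FOXP2 averaged 0.504 CPM with CHIR and 0.898 CPM in mock.

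CHIR was followed by broad change. Of 18485 genes tested, 12004 passed an adjusted p under 0.05 (edgeR quasi-likelihood test, Benjamini-Hochberg), which is 64.9% of them. Of these, 6428 rose (34.8% of the genes tested) and 5576 fell (30.2%), and with library totals alone as the scaling the split was 7772 against 4426. In 53.8% of the genes tested the 5 libraries with CHIR did not overlap the 5 without it. The changes were mostly small: the median log2 fold change over all genes was 0.04, with quartiles at −0.27 and 0.40. At least 2-fold changes were more often upward, with 1804 genes higher (9.76%) and 620 genes lower (3.35%). A bulk library cannot tell fewer cells of a kind from less RNA per cell. All fold changes below are log2 of WT FOXP2 plus CHIR over WT FOXP2, with ± SE, and "rose" and "fell" are used only of genes that passed this test. Counts in the gene lists below stand against the 34.8% and 30.2% of all genes tested that rose and fell. A list with shares near these moved no more than genes at large.

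The target and feedback genes of the Wnt pathway mostly rose with CHIR. Of 31 members tested, 20 rose, 7 fell and 4 did not pass, with a median of 0.59 against 0.04 over all genes. The list holds 39 genes, of which 14 were under 1 CPM in all 10 libraries, and those not tested failed the filter on low counts. AXIN2, the scaffold of the destruction complex that the pathway itself induces, stood at 42.5, 58, 46.7, 48 and 50.8 CPM with CHIR and at 8.73, 8.88, 7.25, 8.56 and 7.12 CPM without it. All 5 libraries with CHIR were far above those without, and the change was 2.60 ± 0.10 (edgeR adjusted p = 1.2e-20). RNF43, a ubiquitin ligase that removes Wnt receptors from the cell surface, stood at 11.8, 18.3, 13.5, 12.1 and 15.9 CPM with CHIR and at 1.84, 1.05, 0.688, 1.2 and 1.05 CPM without it. Its change, 3.62 ± 0.23, was the largest of the list's named members, and its lowest library with CHIR lay well above the highest without. TNFRSF19, a receptor of the TNF receptor family, stood at 2.19, 2.51, 1.69, 1.5 and 2.68 CPM with CHIR and at 0.676, 0.349, 0.5, 0.301 and 0.262 CPM without it, a change of 2.42 ± 0.28 at a low level. LEF1, itself a nuclear partner of β-catenin, stood at 75.6, 89.5, 81.1, 81.5 and 80.6 CPM with CHIR and at 28.1, 33.4, 29.8, 29.7 and 30.1 CPM without it, a change of 1.43 ± 0.06. BMP4, a bone morphogenetic protein, averaged 83.4 ± 2.99 CPM with CHIR and 25.9 ± 1.89 CPM without it (SD, n = 5 each), a change of 1.69 ± 0.06. In these genes as well the groups did not overlap.

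The 7 members that fell include genes that are widely used as Wnt targets. CD44, a hyaluronan receptor, stood at 285, 263, 279, 284 and 277 CPM with CHIR and at 589, 628, 616, 630 and 616 CPM without it. MYC, a growth regulator, stood at 145, 146, 156, 150 and 149 CPM with CHIR and at 245, 274, 277, 283 and 259 CPM without it. SOX9, a chondrogenic transcription factor, averaged 72.1 ± 5.00 CPM with CHIR and 159 ± 4.12 CPM without it (SD, n = 5 each). All libraries with CHIR were below all without, and the changes were −1.15 ± 0.04 for CD44, −1.14 ± 0.04 for SOX9 and −0.84 ± 0.05 for MYC.

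**Figure D1:**
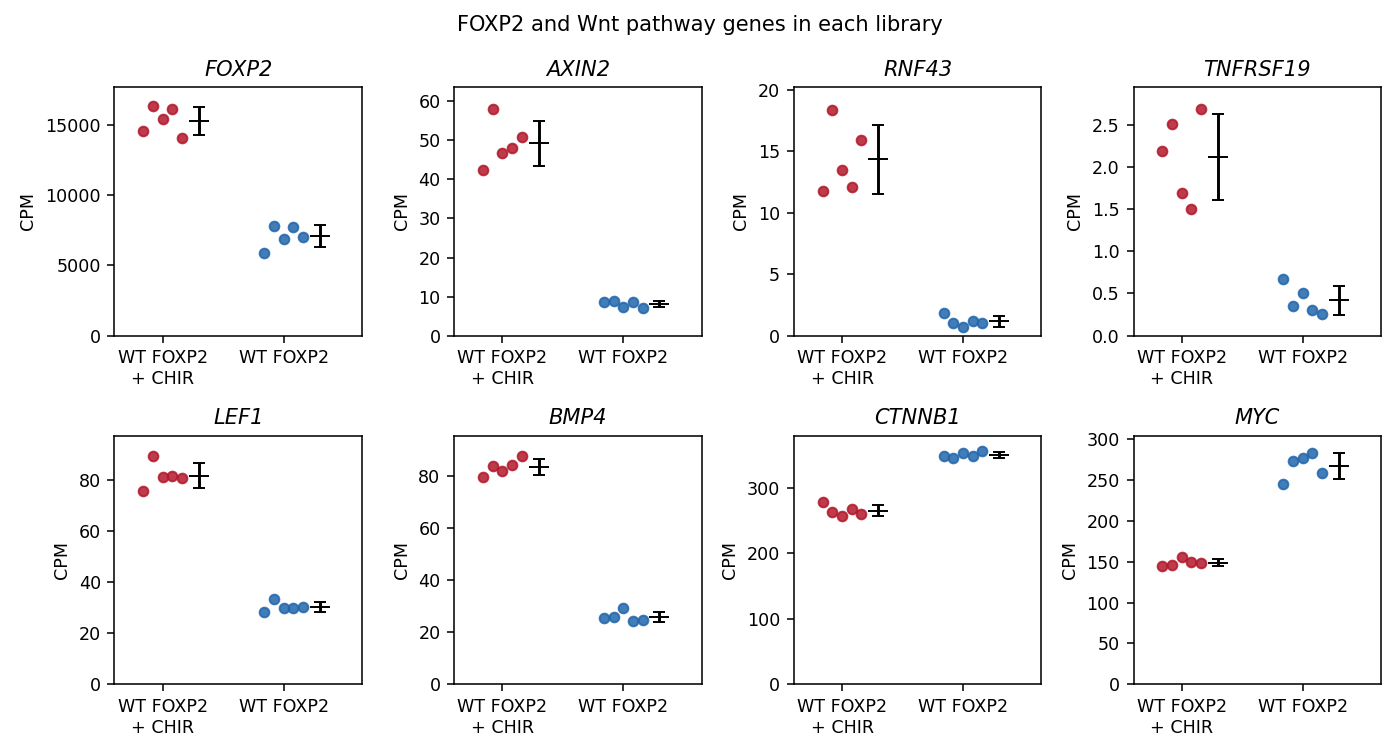
Level in CPM (vertical axes, from 0) of FOXP2 and of 7 genes of the Wnt pathway in each of the 5 libraries with WT FOXP2 plus CHIR (red) and the 5 with WT FOXP2 (blue), with the mean and SD in black. FOXP2, AXIN2, RNF43, TNFRSF19, LEF1 and BMP4 are higher in every library with CHIR, and CTNNB1 and MYC are lower in every one.

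Promoters of 5 of the Wnt target genes named here are shown because members of this list passed the test in both directions. They are the 250 bases before the start of transcription from RefSeq (GRCh38.p14), for the farthest upstream start listed, and capitals mark a forkhead match. LEF1 lies at chr4:108166302-108166551 (minus strand), RNF43 at chr17:58417535-58417784 (minus strand), TNFRSF19 at chr13:23570162-23570411 (plus strand), BMP4 at chr14:53955051-53955300 (minus strand) and CD44 at chr11:35138921-35139170 (plus strand).
LEF1: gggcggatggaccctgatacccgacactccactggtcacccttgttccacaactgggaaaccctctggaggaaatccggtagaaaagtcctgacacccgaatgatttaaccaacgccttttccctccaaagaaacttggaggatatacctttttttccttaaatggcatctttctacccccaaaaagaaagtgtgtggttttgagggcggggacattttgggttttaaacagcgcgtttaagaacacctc
RNF43: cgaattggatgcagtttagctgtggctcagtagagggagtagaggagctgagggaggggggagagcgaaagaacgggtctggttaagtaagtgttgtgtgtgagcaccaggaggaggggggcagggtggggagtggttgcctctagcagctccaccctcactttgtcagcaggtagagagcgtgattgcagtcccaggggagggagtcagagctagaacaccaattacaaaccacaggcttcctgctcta
TNFRSF19: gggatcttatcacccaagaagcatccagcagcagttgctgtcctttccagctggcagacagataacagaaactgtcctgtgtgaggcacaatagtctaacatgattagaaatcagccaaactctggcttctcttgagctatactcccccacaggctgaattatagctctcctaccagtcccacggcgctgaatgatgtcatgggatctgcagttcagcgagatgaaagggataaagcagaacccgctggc
BMP4: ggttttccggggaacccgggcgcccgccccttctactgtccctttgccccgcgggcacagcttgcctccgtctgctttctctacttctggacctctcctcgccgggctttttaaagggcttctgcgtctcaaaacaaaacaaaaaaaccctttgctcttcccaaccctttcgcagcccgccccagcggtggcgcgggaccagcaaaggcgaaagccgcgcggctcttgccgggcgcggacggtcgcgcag
CD44: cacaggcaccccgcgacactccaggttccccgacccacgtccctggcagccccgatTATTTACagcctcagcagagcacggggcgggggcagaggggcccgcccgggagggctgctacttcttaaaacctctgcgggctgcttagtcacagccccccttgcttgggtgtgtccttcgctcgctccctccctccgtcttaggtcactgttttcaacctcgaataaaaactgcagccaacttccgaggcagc
Both strands were searched for the TCF/LEF letters CTTTGAT or CTTTGAA as well as CTTTGTT or CTTTGTA, and for the forkhead letters TGTTTAC or TATTTAC as well as TATTTAT. None of these 5 windows held the TCF/LEF letters, which 12% of 35114 promoter windows of this length hold. CD44, the only gene shown that fell, held TATTTAC 194 bases before the start, and 9.34% of all windows hold one of the forkhead letters. MYC, SOX9 and AXIN2 are not shown, SOX9 and AXIN2 for lack of a promoter entry. The windows therefore cannot compare genes that rose with genes that fell. Over the promoters listed for the target genes, 5 of 40 windows (12.5%) held the TCF/LEF letters and 5 held the forkhead letters. A match describes letters only, and a window without one says nothing about binding elsewhere.

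Among Wnt ligands, 9 of 15 tested rose and 3 fell (median 0.52). Only these 15 of 23 passed the filter on low counts, and 10 of the 23 were under 1 CPM in all 10 libraries. A member near that floor can pass the filter through the group where it is high. WNT6 stood at 3.17, 7.06, 6.17, 6.07 and 6.22 CPM with CHIR and at 0.676, 0.299, 0.875, 0.516 and 1.05 CPM without it, a change of 3.02 ± 0.28. Its first library with CHIR was the lowest of that group but still above all libraries without CHIR. WNT9A changed by 1.82 ± 0.08 and WNT7B by 1.01 ± 0.13. The 3 that fell, WNT5A, WNT3A and WNT10B, did so by less, at −0.47 ± 0.10, −0.47 ± 0.15 and −0.36 ± 0.08.

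Wnt receptors leaned the other way, with 4 of 18 tested higher and 9 lower (median −0.27). FZD2, a Frizzled receptor for Wnt ligands, stood at 4.42, 5.03, 6.06, 4.79 and 5.76 CPM with CHIR and at 13, 13, 15.9, 13.3 and 12 CPM without it, a change of −1.37 ± 0.12. LGR4, a receptor for R-spondins, changed by −0.98 ± 0.14 and FZD4 by −0.89 ± 0.09. The members that rose include LGR6, another R-spondin receptor, at 1.74 ± 0.25, and the receptor tyrosine kinases ROR2 and ROR1, which bind non-canonical Wnt ligands, at 0.71 ± 0.08 and 0.47 ± 0.11. Of 9 secreted Wnt antagonists tested, 3 rose and 4 fell (median −0.32): DKK2 changed by 1.84 ± 0.19, while SFRP1, which sequesters Wnt ligands, changed by −0.71 ± 0.05 and DKK3 by −0.58 ± 0.05.

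The intracellular members of the pathway moved in both directions. Of 17 members of the destruction complex and its regulators 5 rose and 8 fell, with a median of −0.08 that became 0.01 under library totals alone. APC2 changed by 1.43 ± 0.15 at a low level (2.62 CPM with CHIR, 0.961 CPM without), AXIN1 by 0.48 ± 0.06 and TNKS2, a tankyrase that targets AXIN for degradation, by −0.43 ± 0.05. Of 19 further members tested, β-catenin with TCF factors and cofactors, 3 rose and 7 fell, LEF1 being counted above among the target genes, with a median of −0.06 that became 0.03 under library totals alone. CTNNB1, which encodes β-catenin, stood at 278, 263, 258, 268 and 260 CPM with CHIR and at 349, 346, 353, 349 and 357 CPM without it, so that its transcript fell by 0.40 ± 0.03 on the log2 scale, with no overlap. CHIR acts on the β-catenin protein, which was not measured. JUP, the β-catenin relative plakoglobin, rose by 1.18 ± 0.13, and TCF7L2 and TCF7L1, TCF factors, fell by 0.41 ± 0.05 and 0.48 ± 0.14. The other 2 that rose were TCF7 (1.68), picked after its values were seen, and BCL9 (0.08 ± 0.03). TCF7 was at a low level, averaging under 1 CPM over the 10 libraries. BCL9 overlapped between the groups and lost its call in 9 alternatives, namely the test against a 2-fold change, the fit without the filter on low counts (0.06), the fit of the 10 libraries alone (0.07) and the omission of single libraries (1, 3 or 5 of WT FOXP2 and 2, 4 or 5 of WT FOXP2 plus CHIR, 0.05 to 0.08).

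The largest rises outside the Wnt pathway came in genes that were nearly silent without CHIR. Ranking by fold change favours such genes, which can reach the required mean of 1 CPM through the libraries with CHIR alone. Their low level without CHIR is therefore no separate result. IGFL2, an insulin growth factor-like protein, stood at 22.6, 43.8, 29.8, 28 and 33.1 CPM with CHIR, against 4 counts in all 5 libraries without it (9.44 ± 0.33). GZMB, the protease granzyme B of cytotoxic lymphocytes, stood at 52.4, 53.3, 50.1, 52.2 and 56.1 CPM with CHIR and at 0.615, 0.998, 0.688, 0.602 and 0.637 CPM without it (6.22 ± 0.14). Both were far apart between the groups in every library, though the largest changes were picked among genes without overlap. The olfactory receptor pseudogenes OR5H5P and OR5H3P had 941 and 316 counts with CHIR against 2 counts and 1 count without it, ratios per effective library size of 480 (95% counting interval 133 to 3970) and 322 (57.5 to 12776), and they may share reads with related copies. MUCL1, a small secreted mucin-like protein, had 416 counts against 1 (ratio 424, interval 75.8 to 16807). SERPINB2, an inhibitor of urokinase, rose by 5.92 ± 0.11, RASGRP3, which activates Ras, by 6.24 ± 0.48, F13A1, coagulation factor XIII, by 5.98 ± 0.42, and the manganese exporter SLC30A10 by 6.28 ± 0.26. C2orf54 rose by 5.82 ± 0.29.

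Among genes averaging at least 50 CPM, NSMF, a protein that carries signals from synapse to nucleus in neurons, stood at 1002, 1252, 1159, 1118 and 1223 CPM with CHIR and at 73.3, 68.6, 72.9, 73.5 and 68.1 CPM without it (4.01 ± 0.07). NRG1, the ErbB receptor ligand neuregulin, stood at 156, 167, 156, 163 and 166 CPM with CHIR and at 23, 23.4, 22.8, 23.7 and 22.7 CPM without it (2.81 ± 0.06). In both the libraries of a group lay close together and the groups far apart. MYH15, a myosin heavy chain, rose by 2.92 ± 0.08 and MYCT1 by 2.83 ± 0.11. PAX8-AS1 rose by 2.29 ± 0.06, but the strand setting of the counting is not given in the sources used here, so reads of PAX8 and of this antisense gene cannot be told apart.

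The strongest falls were of LIMCH1, an actin stress fibre protein, at 10.9, 10.2, 10.6, 9.86 and 10.5 CPM with CHIR and 295, 276, 278, 270 and 294 CPM without it (−4.76 ± 0.05), and of SDPR, a caveolar protein, at −5.09 ± 0.26 with 13 counts against 471. LIMCH1 varied little within each group. SLAMF9, a SLAM family receptor, changed by −4.01 ± 0.12, RHOJ, a small GTPase, by −3.96 ± 0.23, and C15orf54 by −3.78 ± 0.25. GRAMD1B, which carries cholesterol between membranes, changed by −3.61 ± 0.06 and KISS1, the precursor of kisspeptin, by −3.25 ± 0.08. GPR65, an acid-sensing receptor, changed by −3.47 ± 0.15, CTNNA2, a neuronal α-catenin, by −3.41 ± 0.20, GSG1 by −3.29 ± 0.16 and AMIGO2, an adhesion protein, by −2.51 ± 0.06.

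**Figure D2:**
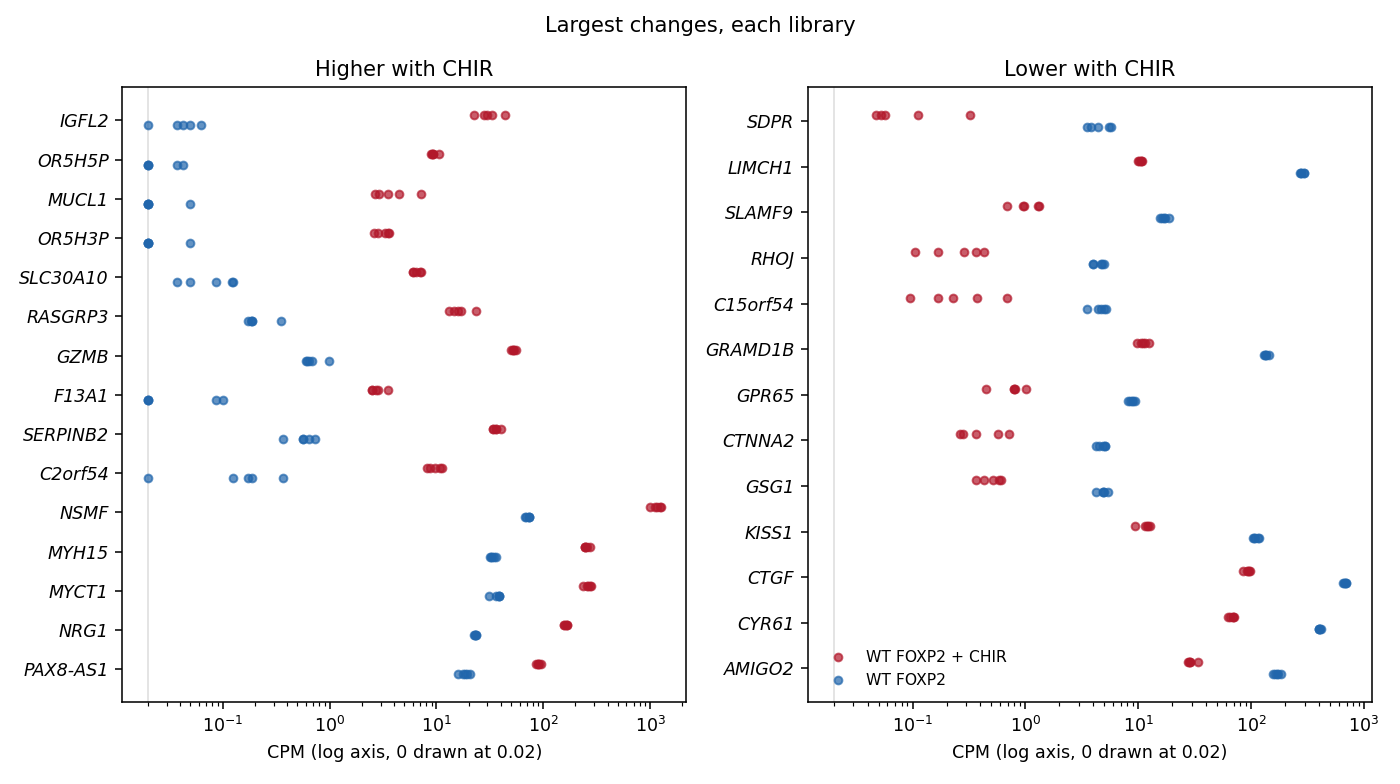
CPM on a log axis of the named genes with the largest rises (left) and falls (right), with 1 point for each of the 5 libraries with WT FOXP2 plus CHIR (red) and the 5 with WT FOXP2 (blue), and with 0 drawn at 0.02. Lack of overlap between the groups was a condition for choosing these genes, so it is not a result. NSMF lies between 1002 and 1252 CPM with CHIR and between 68.1 and 73.5 CPM without it.

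Genes of cell division fell as a block. All 43 mitotic genes tested fell, with a median of −0.65, also with library totals alone. The kinesin KIF20A stood at 53.9, 48.4, 51.9, 53.5 and 52.4 CPM with CHIR and at 119, 118, 122, 112 and 121 CPM without it (−1.18 ± 0.04). Its lower values are all from cells with CHIR. NUF2, a kinetochore protein, changed by −1.15 ± 0.07 and CENPF, a centromere protein, by −1.09 ± 0.06. Of 48 DNA replication genes tested 36 fell and 4 rose (median −0.30), with E2F2, an activator of S-phase genes, at −1.17 ± 0.07 and RRM2, a subunit of ribonucleotide reductase, at −0.94 ± 0.04. The 4 that rose did so by little, with GINS3, E2F7 and CCNE1 at 0.33 ± 0.04, 0.23 ± 0.05 and 0.18 ± 0.04. Of 22 G1 regulators tested 12 fell and 6 rose (median −0.30), with the kinase CDK6 at −1.23 ± 0.05 and the inhibitor CDKN1A at 0.36 ± 0.05. Of 28 p53 target genes tested 18 rose and 3 fell (median 0.34). FAS, a death receptor, averaged 18.8 ± 0.848 CPM with CHIR and 9.11 ± 0.714 CPM without it (SD, n = 5 each), a change of 1.05 ± 0.08, and BBC3, the pro-apoptotic protein PUMA, changed by 0.90 ± 0.10.

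Histone genes rose more often than they fell, at 23 and 9 of 39 tested (median 0.67), but only 39 of the 95 in the table passed the filter on low counts, and members that passed because they were high in 1 group had to differ. Poly(A) selection misses most replication-dependent histone transcripts, and near-identical histone copies may share reads. HIST1H4I averaged 4.71 ± 0.630 CPM with CHIR and 1.73 ± 0.366 CPM without it (SD, n = 5 each), and HIST4H4 12.4 ± 0.283 CPM with CHIR and 5.31 ± 0.612 CPM without it. H2AFV, a variant histone, fell by 0.84 ± 0.04. The cytosolic ribosomal proteins stayed within a narrow band, with 28 of 78 tested higher, 19 lower and a median of 0.01, and the named members lay between RPS29 at −0.28 ± 0.04 and FAU at 0.39 ± 0.06. With library totals alone 42 of them rose and 6 fell. They share reads with many pseudogenes.

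Matrix and contractile genes fell more often than they rose. In the extracellular matrix list 25 of 51 tested fell and 16 rose (median −0.14). Thrombospondin THBS1 stood at 205, 206, 216, 208 and 190 CPM with CHIR and at 1112, 1086, 1120, 1073 and 1114 CPM without it (−2.42 ± 0.03), far apart in every library, and LOX, the collagen cross-linking enzyme, changed by −2.15 ± 0.06. In the opposite direction LAMA2, a laminin chain, changed by 1.83 ± 0.08 and TGFBI, a secreted matrix protein, by 1.34 ± 0.04. Of 26 matrix proteases and inhibitors 15 fell and 5 rose (median −0.28). The plasminogen activators PLAU and PLAT changed by −1.70 ± 0.06 and −1.64 ± 0.06 and the inhibitor TIMP2 by −1.53 ± 0.05. The stromelysin MMP3 averaged 491 ± 32.8 CPM with CHIR and 161 ± 12.5 CPM without it (SD, n = 5 each), a change of 1.60 ± 0.06.

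All 29 genes tested of the TGF-β, BMP and YAP response list passed, 18 lower and 11 higher (median −0.34). CTGF, a matricellular protein and YAP target, stood at 98.5, 84.5, 95.3, 91.8 and 93 CPM with CHIR and at 652, 657, 691, 695 and 673 CPM without it (−2.86 ± 0.05). CYR61, its relative, stood at 69.2, 62.1, 68.7, 70.4 and 65.5 CPM with CHIR and at 397, 399, 408, 411 and 402 CPM without it (−2.59 ± 0.04). Both were several-fold lower in every library with CHIR. AXL, a receptor tyrosine kinase, changed by −1.71 ± 0.06, while the inhibitory SMAD7 changed by 1.42 ± 0.06 and INHBA, an activin subunit, by 1.27 ± 0.06. Of 18 smooth muscle and contractile genes 9 fell and 5 rose (median −0.29), with TAGLN (transgelin) at −1.44 ± 0.08, CALD1 (caldesmon) at −1.44 ± 0.05 and TPM1 (tropomyosin) at −1.30 ± 0.05, against ACTA2 (smooth muscle actin) at 1.85 ± 0.12.

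Markers of the osteoblast and mesenchymal lineages, from which U2OS derives, split, with 7 of 16 tested higher and 8 lower (median −0.16). RUNX2, the master factor of osteoblasts, stood at 28.7, 30.3, 30, 29.8 and 30.2 CPM with CHIR and at 7.87, 7.13, 9.69, 7.23 and 7.61 CPM without it (1.93 ± 0.06). CDH11, osteoblast cadherin, stood at 47.7, 71.5, 56.4, 53.6 and 64.9 CPM with CHIR and at 14.7, 14.6, 13.6, 13.3 and 13.9 CPM without it (2.07 ± 0.10). The groups did not overlap for either. SPP1 (osteopontin) changed by −1.35 ± 0.09, CDH2 (N-cadherin) by −0.98 ± 0.04 and VIM by −0.92 ± 0.03. TWIST1 had no count in the 10 libraries.

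Markers of other cell types were also counted, and they moved in both directions. Of 19 epithelial markers tested 9 rose and 5 fell (median 0.26), with the mucin MUC5AC at 3.35 ± 0.10 and the keratin KRT17 at 1.66 ± 0.19, against the desmosome protein DSP at −1.53 ± 0.11 and CDH1 (E-cadherin) at −0.84 ± 0.20. Of 12 endothelial markers 2 rose and 7 fell (median −0.50), with VWF (von Willebrand factor) at 3.39 ± 0.13 and ENG (endoglin) at −1.20 ± 0.09. Of 15 neuronal and glial markers 8 rose and 3 fell (median 0.58), with TUBB3 (β-tubulin III) at 1.61 ± 0.09 and GAP43 at 1.58 ± 0.12. Of 6 blood cell markers tested 3 rose and none fell, GZMB among them. Summed over the library, the blood list stood at 85 to 88 CPM with CHIR and 26 to 30 CPM without it, the endothelial list at 93 to 105 CPM with CHIR and 127 to 148 CPM without it, the neuronal list at 220 to 240 CPM with CHIR and 167 to 171 CPM without it, and the epithelial list at 828 to 895 CPM with CHIR and 878 to 914 CPM without it. Most of the blood list's sum with CHIR was GZMB, at 50.1 to 56.1 CPM with CHIR and 0.602 to 0.998 CPM without it, a gene that is also among the 10 largest rises. The part of these markers in the other results was not tested.

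Cytokine and NF-κB response genes rose in 14 of 23 tested and fell in 5 (median 0.40). The chemokine CXCL3 changed by 1.48 ± 0.08, the growth factor CSF3 by 1.44 ± 0.12 and IL6 by 1.21 ± 0.14, against the chemokine CCL20 at −1.04 ± 0.10 and IL1A at −0.95 ± 0.11. Interferon-stimulated genes went the other way, with 19 of 31 lower and 7 higher (median −0.40). The membrane proteins IFITM3 and IFITM2, which may share reads, changed by −1.27 ± 0.08 and −1.16 ± 0.08, while ISG20, a nuclease, changed by 0.79 ± 0.06. IFNB1, the interferon β gene, had no count in the 10 libraries. Immediate early genes split 14 higher and 15 lower of 35, with a median of −0.06 that became 0.03 under library totals alone: FOSB, a subunit of AP-1, changed by 0.75 ± 0.09 and the phosphatase DUSP1 by −0.98 ± 0.05.

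Of 40 genes of the ER stress and ATF4 response 22 rose and 16 fell (median 0.14), with DDIT4 at 0.81 ± 0.06 and CHAC1, which degrades glutathione, at 0.70 ± 0.08, against the protein disulfide isomerase PDIA4 at −0.60 ± 0.03. Of 21 heat shock chaperones 10 fell and 4 rose, with a median of −0.03 that became 0.05 under library totals alone. The abundant chaperones HSP90AA1 and HSPA8 averaged 1914 ± 62.6 and 2320 ± 77.5 CPM with CHIR and 3217 ± 93.2 and 3445 ± 37.3 CPM without it (SD, n = 5 each), changes of −0.75 ± 0.05 and −0.57 ± 0.03, while the co-chaperone DNAJB1 changed by 0.62 ± 0.03. Of 45 lysosome and autophagy genes tested 26 rose and 9 fell (median 0.18). TFEB, the transcription factor of lysosomal genes, averaged 9.44 ± 0.751 CPM with CHIR and 3.37 ± 0.633 CPM without it (SD, n = 5 each), a change of 1.49 ± 0.12. MCOLN1, a lysosomal cation channel, changed by 1.47 ± 0.07, and MITF, a relative of TFEB, by −1.16 ± 0.09.

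Lists of metabolism moved in both directions, as did all genes tested, of which 34.8% rose and 30.2% fell. The counts of NRF2 targets below lie near those shares. Of 33 genes of cholesterol and fatty acid synthesis 14 rose and 10 fell (median 0.03). INSIG1, which holds back the sterol sensor SCAP, averaged 62.2 ± 3.85 CPM with CHIR and 19.7 ± 0.983 CPM without it (SD, n = 5 each), a change of 1.66 ± 0.06. Of 33 glycolysis and hypoxia genes 12 rose and 13 fell (median 0.06), with PFKFB4, which controls glycolytic flux, at 0.88 ± 0.07 and BNIP3L, a mitophagy receptor, at −1.40 ± 0.06. Of 21 genes of glycogen metabolism, the process GSK3 was named for, 8 rose and 10 fell, with a median of −0.07 that became 0.02 under library totals alone. PYGM, the muscle glycogen phosphorylase, changed by 0.81 ± 0.18 and PPP1R3B, a glycogen-targeting phosphatase subunit, by −1.08 ± 0.09. NRF2 targets (8 of 24 higher, 7 lower) and FOXO targets (8 of 24 higher, 10 lower) had medians of −0.07 and −0.06, which became 0.02 and 0.03 under library totals alone, with AKR1B10, a reductase, at 1.53 ± 0.11, NQO1, a quinone reductase, at −0.71 ± 0.04, KLF15 at 1.45 ± 0.08 and KLHL24 at −1.29 ± 0.07.

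Clock genes rose in 13 of 20 tested and fell in 4 (median 0.35). DBP, a clock output factor, changed by 1.45 ± 0.08 and BHLHE40, a clock repressor, by 1.08 ± 0.04, against NPAS2, a partner of BMAL1, at −2.19 ± 0.05 and ARNTL2 at −1.36 ± 0.06. Of 54 axon guidance genes tested 26 rose and 17 fell (median 0.13). The ephrin receptor EPHA4 averaged 68.5 ± 2.11 CPM with CHIR and 16.1 ± 1.57 CPM without it (SD, n = 5 each), a change of 2.09 ± 0.06. The semaphorin receptor PLXNA2 averaged 20.9 ± 0.922 CPM with CHIR and 97.9 ± 6.51 CPM without it, a change of −2.23 ± 0.06. Of 11 Hedgehog pathway genes tested 2 rose and 5 fell (median −0.22), with the pathway's transcription factor GLI1 at 0.95 ± 0.13, against the co-receptor BOC at −0.75 ± 0.10 and SMO at −0.55 ± 0.08.

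Genes described elsewhere as FOXP2 targets rose in 11 of 22 tested and fell in 8 (median 0.26). SYK, a tyrosine kinase, stood at 5.32, 7.87, 6.27, 6.97 and 6.73 CPM with CHIR and at 0.307, 0.599, 0.25, 0.301 and 0.487 CPM without it (4.02 ± 0.19), with every library with CHIR higher. SCN3A, a sodium channel, changed by 1.03 ± 0.13 and SRPX2, a secreted protein that binds the urokinase receptor, by 0.88 ± 0.04, while that receptor itself, PLAUR, changed by −0.84 ± 0.06 and PDGFRA, a growth factor receptor, by −0.96 ± 0.11. With CHIR in cells without a FOXP2 plasmid 11 of the 22 rose and 9 fell (median 0.16). SYK rose there by 4.37 ± 0.15, and the difference from WT FOXP2 cells did not pass (−0.35 ± 0.34, edgeR adjusted p = 0.367). With dhelix FOXP2 SYK rose by 2.91 ± 0.11. Of the FOXP family, FOXP3 rose by 1.36 ± 0.17 at a low level (2.57 CPM with CHIR, 0.995 CPM without) and FOXP1 fell by 0.89 ± 0.09.

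**Figure D3:**
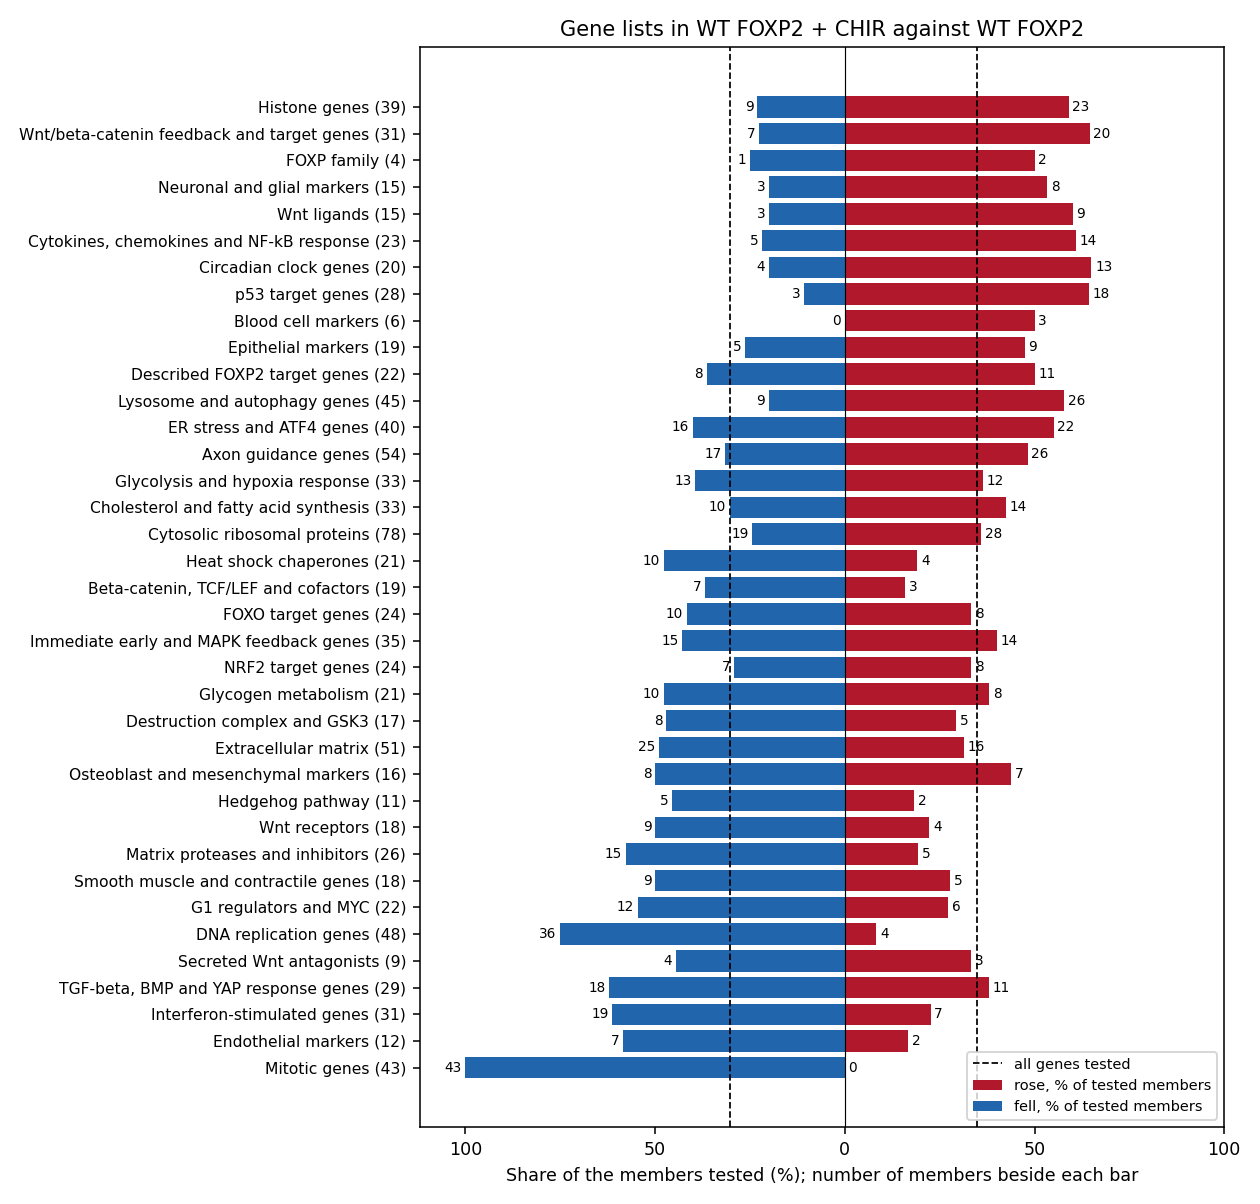
For each of 37 gene lists, the share in percent of the members tested (number in brackets) that rose (red, right) or fell (blue, left) with CHIR in cells with WT FOXP2, with the number of genes beside each bar, in the order of the lists' median log2 fold change. Dashed lines mark all genes tested, 34.8% higher and 30.2% lower. All 43 mitotic genes lie on the lower side, and 20 of 31 Wnt target genes on the higher side.

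The CHIR effect with WT FOXP2 was then set against the effect of CHIR in cells without a FOXP2 plasmid (CHIR alone against mock), in 1 fit over all 30 libraries. The 2 comparisons share no library, and a difference is given as the log2 fold change with WT FOXP2 minus the other. The difference of the effects passed for 12130 genes, which is 65.6% of those tested, with 5677 higher and 6453 lower with WT FOXP2. Under library totals alone, which moved the median difference of all genes by 0.20, the split was 7640 against 4413. Across genes the 2 effects had a Pearson r of 0.39, as a description over 18485 genes that are not independent. Of 9298 genes called in both, 6301 moved the same way and 2997 in opposite directions. All 2997 also passed the test of the difference, but calls in opposite directions make that nearly certain, so it adds no support. In 314 of them both changes were at least 2-fold: 285 rose with WT FOXP2 and fell in cells without the plasmid, and 29 did the reverse.

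The direct Wnt feedback genes responded to CHIR in both backgrounds, from different starting levels. AXIN2 averaged 49.2 CPM with WT FOXP2 plus CHIR and 8.11 CPM with WT FOXP2, and 145 CPM with CHIR alone and 21 CPM in mock. Its log2 fold changes were 2.60 ± 0.10 with WT FOXP2 and 2.79 ± 0.09 without the plasmid, and their difference did not pass (−0.19 ± 0.14, edgeR adjusted p = 0.254; 0.01 under library totals alone). LEF1 rose slightly less with WT FOXP2, by a difference of −0.22 ± 0.08 (edgeR adjusted p = 0.0146), but this call was lost under library totals alone (−0.02), with a minimum mean of 1 CPM (−0.15), and without library 1 of mock (−0.17), library 2 of WT FOXP2 (−0.17) or library 1 or 5 of WT FOXP2 plus CHIR (−0.16 and −0.19). RNF43 averaged 14.3 CPM with WT FOXP2 plus CHIR and 1.17 CPM with WT FOXP2, against 145 CPM with CHIR alone and 56.1 CPM in mock, so that its fold change was larger with WT FOXP2 (difference 2.25 ± 0.28) although all its levels there were lower. MYC and CD44 fell with CHIR in WT FOXP2 cells and rose with CHIR in cells without the plasmid. Both also fell with CHIR in dhelix FOXP2 cells, at −0.86 ± 0.05 for MYC and −0.81 ± 0.04 for CD44. SOX9 fell with CHIR both with WT FOXP2 and without the plasmid, at −1.14 ± 0.04 and −1.62 ± 0.04. MYC averaged 149 CPM with WT FOXP2 plus CHIR and 267 CPM with WT FOXP2, and 90.9 CPM with CHIR alone and 40.3 CPM in mock (difference −2.02 ± 0.07). CD44 averaged 278 CPM with WT FOXP2 plus CHIR and 616 CPM with WT FOXP2, and 103 CPM with CHIR alone and 74.2 CPM in mock (difference −1.63 ± 0.05).

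The medians of several lists lay apart in these backgrounds. Ribosomal protein genes had a median of 0.01 with WT FOXP2 and 0.53 in cells without the plasmid, where 77 of 78 rose and none fell, and 75 of the 78 differences were lower with WT FOXP2. Extracellular matrix genes had medians of −0.14 with WT FOXP2 and −1.06 without it, where 41 of 51 fell, and 35 of the differences were higher. All 11 Hedgehog pathway genes tested fell in cells without the plasmid (median −1.27), and all 11 differences were higher. Histone genes had medians of 0.67 with WT FOXP2 and −0.67 without it, and axon guidance genes 0.13 and −0.59. Mitotic genes fell in both, with medians of −0.65 with WT FOXP2 and −0.33 without it, and 32 of 43 differences were lower, or 18 under library totals alone. The 65.6% of all genes that differed counts both directions. By direction, these list counts stand against 5677 of 18485 genes higher and 6453 lower with WT FOXP2. Under library totals alone those were 7640 higher and 4413 lower.

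**Figure D4:**
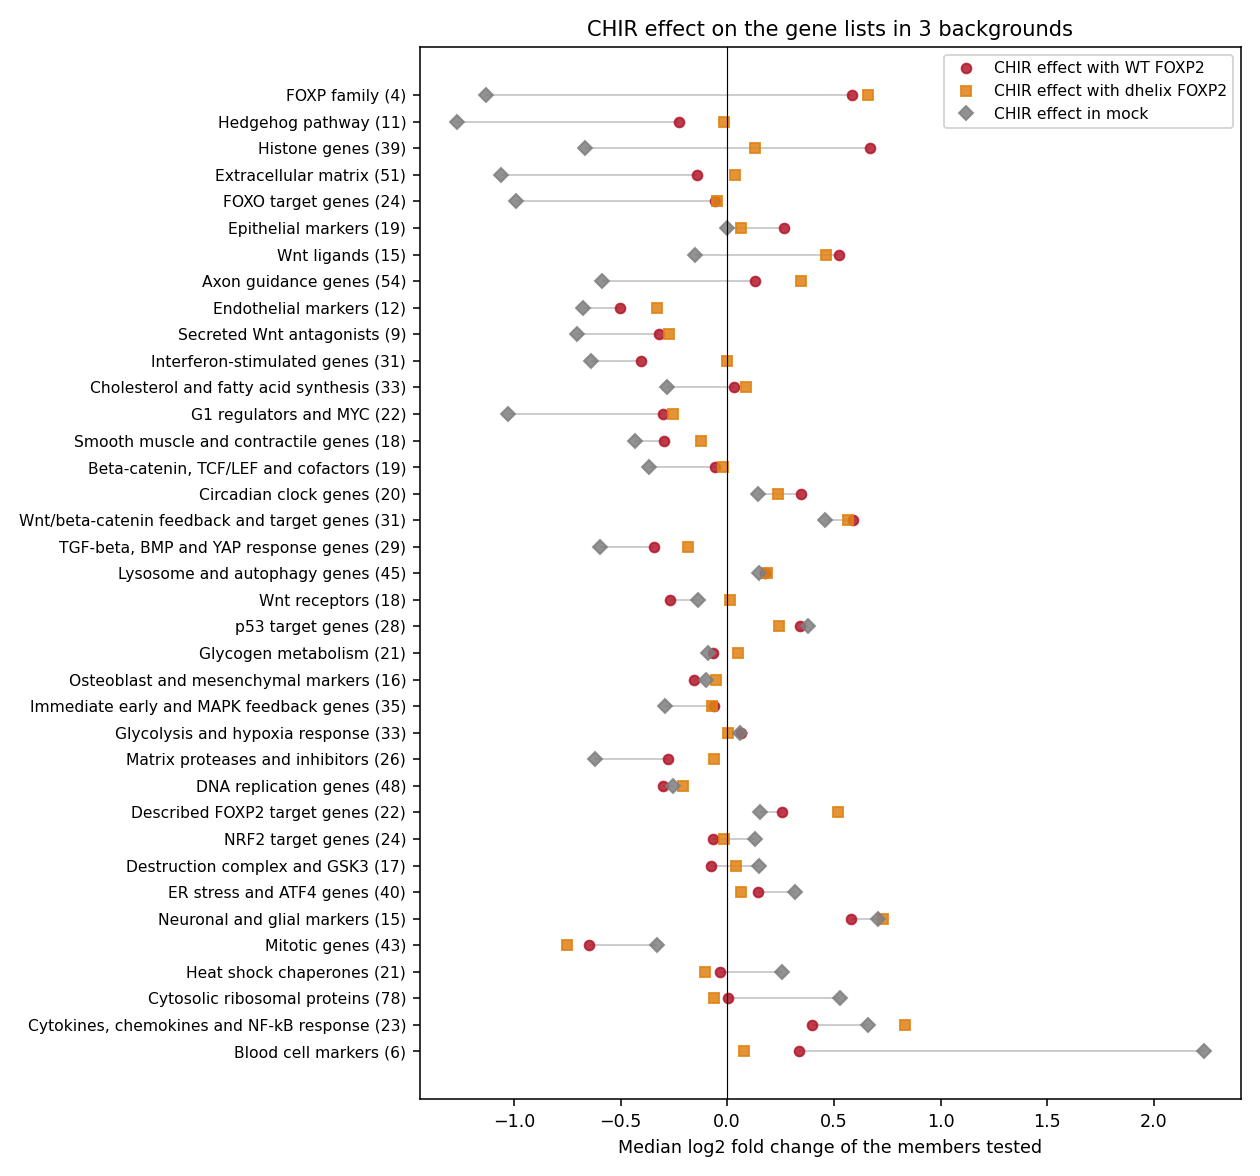
Median log2 fold change with CHIR of the members tested in each of 37 gene lists, in cells with WT FOXP2 (red circles), with dhelix FOXP2 (orange squares) and in mock cells (grey diamonds), ordered by the median difference between WT FOXP2 and mock. Most WT and dhelix points lie near each other, but those of the histones (0.67 and 0.13) do not. The interferon-stimulated genes (−0.40 and −0.002) and the cytokines (0.40 and 0.83) also part between WT and dhelix FOXP2. Between WT FOXP2 and mock cells the ribosomal proteins, with medians of 0.01 and 0.53, and the histones, with 0.67 and −0.67, are far apart.

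The 12 genes with the firmest differences from cells without a FOXP2 plasmid had means without CHIR that lay far apart in WT FOXP2 and mock cells. The difference that picked these genes contains those means, so the gap describes the choice and is no separate result. LMCD1, a LIM-domain transcriptional cofactor, averaged 34.3 CPM with WT FOXP2 plus CHIR and 20.3 CPM with WT FOXP2, and 12.6 CPM with CHIR alone and 170 CPM in mock, so that it rose in the first pair and fell in the second (difference 4.49 ± 0.08, edgeR adjusted p = 3.81e-33). BHLHE41, a clock repressor, averaged 13.6 CPM with WT FOXP2 plus CHIR and 8.51 CPM with WT FOXP2, and 10.8 CPM with CHIR alone and 146 CPM in mock (difference 4.43 ± 0.08). PTCH1, the Hedgehog receptor, averaged 12.7 CPM with WT FOXP2 plus CHIR and 15 CPM with WT FOXP2, and 9.24 CPM with CHIR alone and 106 CPM in mock (difference 3.27 ± 0.08). In all 3 the mock cells alone stood high. The differences were 4.49 ± 0.11 for SMOC1, a matricellular protein, 2.95 ± 0.07 for RAB11FIP4, an endosomal effector, and 2.07 ± 0.05 for ENC1, an actin-binding protein.

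In the other direction SLAMF7, a receptor of immune cells, averaged 70.1 CPM with WT FOXP2 plus CHIR and 58.6 CPM with WT FOXP2, and 95.2 CPM with CHIR alone and 4.04 CPM in mock (difference −4.29 ± 0.07, edgeR adjusted p = 5.66e-33). MGAT5, a glycosyltransferase, averaged 408 CPM with WT FOXP2 plus CHIR and 285 CPM with WT FOXP2, and 1298 CPM with CHIR alone and 143 CPM in mock (difference −2.66 ± 0.05). Here mock cells were the lowest of the 4 groups. LIMA1, an actin-binding protein, differed by −3.03 ± 0.07, DOCK4, an activator of Rac, by −2.96 ± 0.07, the phosphatase DUSP5 by −2.64 ± 0.06 and the matrix protein TNC (tenascin C) by −2.29 ± 0.05. These 4 fell with CHIR in WT FOXP2 cells and rose with CHIR in mock cells.

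Against dhelix FOXP2 the CHIR effect differed far less. Of the 18485 genes 2627 passed the test of the difference, which is 14.2%, with 977 higher and 1650 lower with WT FOXP2. That split depended on the settings: it was 1553 against 963 under library totals alone and 1510 against 659 without the filter on low counts. Leaving out library 5 or 2 of WT FOXP2, library 4 of dhelix FOXP2 or library 2 of WT FOXP2 plus CHIR took the lower count to 1021, 1077, 1090 and 1099. It was 1106 to 1194 without library 1 or 3 of WT FOXP2, 2, 3 or 5 of dhelix FOXP2, or 2 of dhelix FOXP2 plus CHIR. Without any other single library it was 1363 to 1594. A change of at least 2-fold in the fitted difference was found for 123 genes higher and 57 lower, but edgeR's test against a 2-fold change called 0 of them, with 107 genes at an unadjusted p under 0.05, while DESeq2 against no change called 2787 genes. Of 9529 genes called in both backgrounds 9374 moved the same way, and across genes the effects had a Pearson r of 0.89. FOXP2 transcript rose by 1.11 ± 0.09 and 1.34 ± 0.09 with CHIR in the WT and dhelix pairs.

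MUC5AC, a gel-forming mucin, stood at 44.8, 56.7, 52.3, 54.1 and 57.8 CPM with WT FOXP2 plus CHIR and at 3.75, 5.14, 5.38, 6.5 and 4.95 CPM with WT FOXP2. It averaged 151 CPM with dhelix FOXP2 plus CHIR and 40.2 CPM with dhelix FOXP2, so that it rose by more with WT FOXP2, where its level without CHIR was lower (difference 1.44 ± 0.13, edgeR adjusted p = 1.12e-09). In cells without a FOXP2 plasmid it was almost absent, at 0.0494 CPM with CHIR alone and 0.0474 CPM in mock. The means of the other 5 leading genes on this side were also lower with WT FOXP2 than with dhelix FOXP2, both with and without CHIR. These means enter the difference that picked the genes. MLC1, a membrane protein of astrocytes, averaged 102 CPM with WT FOXP2 plus CHIR and 33.1 CPM with WT FOXP2, while the means were 171 CPM with dhelix FOXP2 plus CHIR and 114 CPM with dhelix FOXP2 (difference 1.03 ± 0.09). The differences were 1.29 ± 0.12 for MAL, a membrane raft protein, 1.50 ± 0.15 for SRL, a calcium-binding protein, 1.07 ± 0.11 for MYO7A, an unconventional myosin, and 1.54 ± 0.16 for C19orf77.

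On the other side IL8, a neutrophil chemokine, stood at 78.8, 73.8, 74, 74.9 and 66 CPM with WT FOXP2 plus CHIR and at 82.1, 88.9, 80.4, 98.5 and 87.6 CPM with WT FOXP2. It averaged 85.4 CPM with dhelix FOXP2 plus CHIR and 45.8 CPM with dhelix FOXP2, so that it fell with CHIR in the WT pair and rose in the dhelix pair (difference −1.15 ± 0.09, edgeR adjusted p = 8.09e-11). TRAF1, an adaptor of TNF receptors, averaged 59.5 CPM with WT FOXP2 plus CHIR and 57.5 CPM with WT FOXP2, while the means were 83.2 CPM with dhelix FOXP2 plus CHIR and 38 CPM with dhelix FOXP2 (difference −1.08 ± 0.07). Its own change with WT FOXP2 did not pass (0.05 ± 0.05, adjusted p = 0.443). THBS1 differed by −0.81 ± 0.05, MGAT5 by −0.58 ± 0.05, HEG1, a receptor at cell junctions, by −0.55 ± 0.05 and DYNC1H1, the dynein heavy chain, by −0.46 ± 0.04. CTNNB1 transcript also fell by more with WT FOXP2 than with dhelix FOXP2, by a difference of −0.24 ± 0.04 (edgeR adjusted p = 4.12e-05), which did not pass without the filter on low counts (−0.18). Against mock cells CTNNB1 and THBS1 differed in the other direction. CTNNB1 fell by less with WT FOXP2 than in mock cells (difference 0.13 ± 0.04, edgeR adjusted p = 0.00375), as did THBS1 (1.38 ± 0.05).

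**Figure D5:**
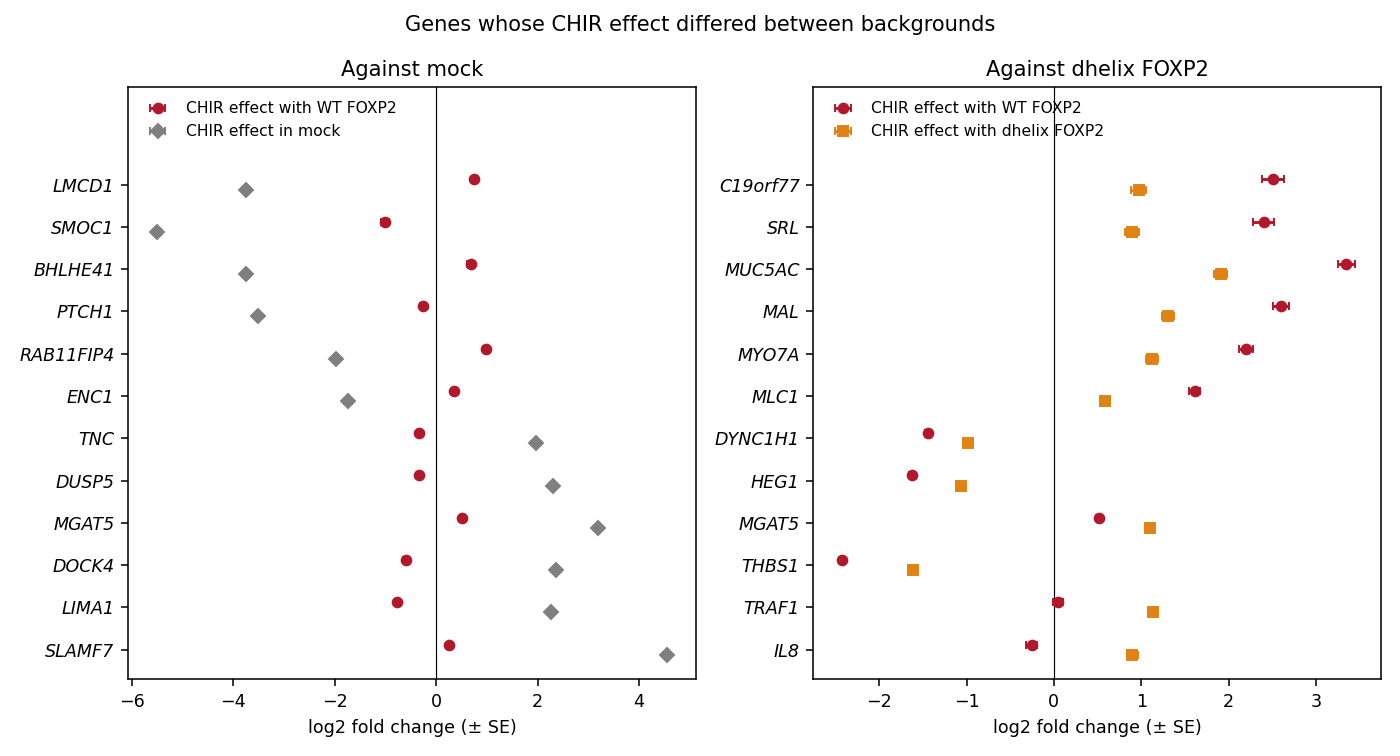
Log2 fold change with CHIR (± SE from the fit, 5 libraries a group) of the genes whose CHIR effect differed most firmly: left, with WT FOXP2 (red circles) and in mock cells (grey diamonds); right, with WT FOXP2 (red circles) and with dhelix FOXP2 (orange squares). The axes differ in range. LMCD1 lies above 0 with WT FOXP2 and below it in mock cells, and IL8 lies below 0 with WT FOXP2 and above it with dhelix FOXP2.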

How the data were processed

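RNA was sequenced from 30 U2OS libraries in 6 groups of 5, and the 10 libraries of WT FOXP2 with and without CHIR form the main comparison. The authors deposited 1 table of whole-number read counts per gene for all libraries. Reads were processed with STAR 2.6.1a, featureCounts from Subread and DESeq2 on hg19, per the submitters' processing notes, which give no role or order for these tools. Not given in the sources used here are the annotation, the use of strand, and whether fragments or single reads were tallied. Labels come from GEO, and every column name matched 1 sample.

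All 30 libraries were fitted with a mean per group in edgeR 4.0.16 (R 4.3.3) by the quasi-likelihood method with robust estimates, on TMM-scaled counts of the 18485 of 57373 genes that passed edgeR's filter on low counts (99.9% of the counts). The other genes, 17378 of them at 0 in all libraries, were not tested. The common biological coefficient of variation was 5.62%. The main contrast was WT FOXP2 plus CHIR against WT FOXP2, and 2 interaction contrasts set it against the CHIR effect in mock and dhelix FOXP2 cells. P-values were adjusted over all genes tested (Benjamini-Hochberg), with a threshold of 0.05. CPM values use TMM-scaled library sizes and are not per length, so levels are not compared between genes. A count of 0 in a library allows up to 3 counts, and counting intervals cover counting error only. FOXP2 was also compared by an exact permutation test. The script was tested on simulated counts.

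The comparison, the gene lists and the named genes were chosen with earlier results of these data known. Named were FOXP2, CTNNB1, AXIN2 and LEF1, the 10 largest changes in each direction with no overlap and a mean of at least 1 CPM, the 6 largest with a mean of at least 50 CPM, up to 3 called genes per direction in each of 37 lists, and the 6 smallest p-values per direction of each interaction. The text prints 170 of the 252 genes this rule gave, and some of the others are not reported here. Clone-named genes were passed over. Promoters are from RefSeq (GRCh38.p14) and the counts from hg19, so no gene positions of the files are given.

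Alternatives were other scalings (the size factors of DESeq2 1.42.0, library totals alone, FOXP2 left out), other filters, DESeq2, only the groups compared, a test against a 2-fold change, the replicate number as a block, and each library left out in turn.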

Additional observations from a re-analysis of the deposited data

Results flagged for a closer look

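The effect of CHIR differed by background. For CTNNB1 and THBS1 the log2 differences were 0.13 and 1.38 from mock cells, opposite in sign to those from dhelix FOXP2 cells. The test of the difference passed for 12130 genes against cells without a FOXP2 plasmid and for 2627 genes against dhelix FOXP2 cells. Of the genes named, the differences from mock cells were 4.49 for LMCD1, 4.49 for SMOC1, 4.43 for BHLHE41, 3.27 for PTCH1, 2.95 for RAB11FIP4, 2.25 for RNF43, 2.07 for ENC1, −0.22 for LEF1, −1.63 for CD44, −2.02 for MYC, −2.29 for TNC, −2.64 for DUSP5, −2.66 for MGAT5, −2.96 for DOCK4, −3.03 for LIMA1 and −4.29 for SLAMF7, all in log2. The differences from dhelix FOXP2 cells were 1.54 for C19orf77, 1.50 for SRL, 1.44 for MUC5AC, 1.29 for MAL, 1.07 for MYO7A, 1.03 for MLC1, −0.24 for CTNNB1, −0.46 for DYNC1H1, −0.55 for HEG1, −0.58 for MGAT5, −0.81 for THBS1, −1.08 for TRAF1 and −1.15 for IL8.

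In 340 groups of 5 libraries examined, 19 held a library that stood apart from its fellows by Dixon's criterion, and chance flags about 1 in 20 groups. With WT FOXP2 plus CHIR, library 1 was high for SDPR (0.325 CPM), AMIGO2 (33.8 CPM), IL6 (3.41 CPM) and PFKFB4 (25.9 CPM) and low for WNT6 (3.17 CPM). Library 2 was low for WNT7B (5.83 CPM) and HSPA8 (2188 CPM), library 4 was low for TIMP2 (45.2 CPM), and library 5 was high for OR5H5P (10.5 CPM) and low for GINS3 (46.6 CPM). With WT FOXP2, library 2 was high for GZMB (0.998 CPM), RASGRP3 (0.349 CPM), and MUCL1 and OR5H3P (0.0499 CPM each, 1 count). Library 3 was high for WNT10B (15.9 CPM), RUNX2 (9.69 CPM), KLF15 (5.19 CPM) and PYGM (1.81 CPM), and library 4 for BHLHE41 (9.08 CPM). What set these values apart was not tested.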

How the results depend on the processing

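The main count of 12004 genes stayed within 1.5 times of itself under every alternative but the test against a 2-fold change, which called 1245 genes (921 higher, 324 lower). That test called 2318 genes (1607 higher, 711 lower) for the difference from mock cells and 0 (0 higher, 0 lower) for the difference from dhelix FOXP2 cells, where edgeR gave 107 genes an unadjusted p under 0.05 and DESeq2, testing against no change, called 2787. The difference from dhelix FOXP2 cells was the least stable. Library totals alone gave 1553 higher and 963 lower, no filter on low counts gave 1510 higher and 659 lower, and fitting only the 20 libraries compared gave 4291 calls, 2032 of them higher. Leaving out single libraries gave 1021 to 1594 lower, and the cause was not tested. FOXP2 was higher with CHIR in every alternative run, with ratios of 2.08 to 2.30 over the scalings, no filter and single libraries left out, but did not pass the test against a 2-fold change. Over the named genes 5494 alternative values kept direction and call, and 187 lost the call, 160 of them in the 2-fold test. The reversed values were small: the AXIN2 difference from mock cells was 0.012 under library totals alone, and TRAF1 changed by −0.022 to 0.091 when single libraries were left out. The replicate numbers did not pair the libraries (correlation of same-numbered deviations −0.02 to 0.04). With the number as a replicate block 12026 genes were called, 11911 of them shared with the unblocked calls in the same direction, and the interactions gave 12132 and 2708. Depth limits genes with 1 count in a whole group, such as OR5H3P and MUCL1, whose ratios have wide intervals.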
